A study of Mus musculus with 6 samples.

Results

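The transcriptome described here is that of control R1 mouse embryonic stem cells, taken from 3 of the 6 arrays of the series. These 3 arrays were chosen by their titles, as replicates 1, 2 and 3 of cells that carried a lentivirus with a short hairpin RNA (shRNA) against luciferase (Luc), a firefly gene that mouse cells lack, and that had been sorted for green fluorescent protein. R1 is an established embryonic stem cell line, grown from the early embryo of a mouse of the 129 background. The 3 other arrays carried an shRNA against KIAA1718 and were not used here. Total RNA was measured on the Affymetrix Mouse Genome 430 2.0 array, on which sets of short probes, mostly near the 3' end, report each transcript. Whether each replicate was infected or grown on its own is not stated in the labels, so the spread between replicates may be technical. Nor do the labels state the culture conditions or whether feeder cells were present. The cells are 1 line with 1 control shRNA. With 1 group of 3 arrays there is nothing to compare between conditions, so values, standard deviations (SD) and counts are given without tests.

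Mouse embryonic stem cells are the cultured counterpart of the epiblast, the part of the early embryo from which the body forms. They renew themselves under a network of transcription factors centred on Oct4 (encoded by Pou5f1), Sox2 and Nanog, supported by the cytokine LIF acting through STAT3 and by BMP signalling, while their own FGF4 acting through ERK prompts them to leave this state. They divide fast, with a short G1 phase, and are known for high glycolysis, threonine and nucleotide metabolism and an open chromatin.

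Each array was scaled to a common median of 10.7, and each of 18193 genes was represented by its brightest probe set with a single gene symbol. A background line was set at a mean signal of 6.79, the 95th percentile over 75 olfactory, vomeronasal and taste receptor genes, which serve the sensing of odours and tastes and whose median signal was 2.19. Of these 75 genes 69 had a single probe set, so the line hardly allows for taking the brightest of several. Genes at or under the line are called near background, those with at least 10 times its signal (67.9) abundant, and those between moderate. By this rule 6529 genes (35.9%) were abundant, 5972 (32.8%) moderate and 5692 (31.3%) near background. The abundant class is broad, so the brightest 10% of genes, 1820 in number and from a signal of 382 upward, are counted beside it. Probes differ in how well they bind, so a signal shows how far a gene stood above background on its own probe set, and an order of signals is not an order of RNA copies. A gene near background may be silent, or its probes may fail to report it.

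**Figure D1:**
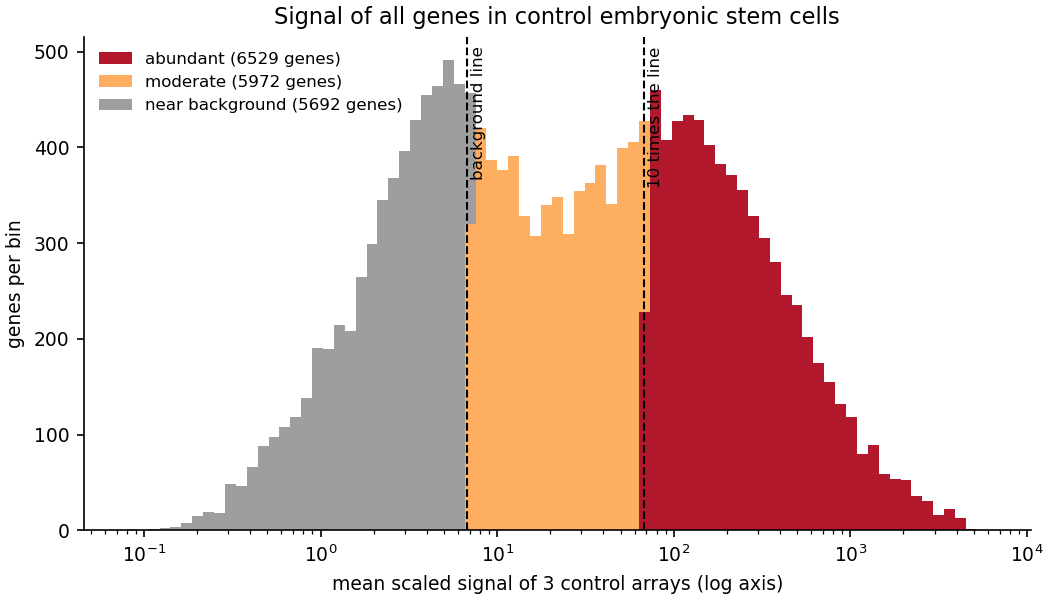
The histogram shows the mean scaled signal of 18193 genes over the 3 control arrays on a log axis, against genes per bin, coloured by class, with dashed lines at 6.79 and 67.9. The genes form 2 broad humps, one under the background line and one above the abundant line, with median signals of 2.79 and 206 for the near background and abundant classes.

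Promoter sequences of 6 genes are shown to let the signal classes be read beside the DNA in front of the genes: 4 pluripotency genes with signals of 911 to 1968, the ribosomal protein gene Rpl38, whose signal of 4410 ranked second of all genes, and Alb, the gene of liver albumin, near background at 3.51 ± 0.813 (SD, n = 3). The sequences are RefSeq's for the GRCm38.p6 assembly, from the C57BL/6J strain and not from R1 cells. Each is the strand that the gene is read from, 5' to 3', and covers the 200 bases that end just before the annotated start. They lie at chr17:35505832-35506031 (Pou5f1, plus strand), chr3:34649795-34649994 (Sox2, plus strand), chr6:122707289-122707488 (Nanog, plus strand), chr8:43307010-43307209 (Zfp42, minus strand), chr11:114668380-114668579 (Rpl38, plus strand) and chr5:90460670-90460869 (Alb, plus strand). Capitals mark matches on either strand to any of 9 motifs. The search took TATAAA for the TATA box, CCAAT for the box of that name, GGGCGG for the GC box and CCGGAAG for the core that ETS factors bind. It took CACGTG for the E-box, ATGGCGG for the core of YY1 and TGACGTCA for the cyclic AMP response element. The octamer was searched as ATGCAAAT, and its shorter core ATGCAAA, which overlaps it, was added after the data were seen. For Pou5f1 and Nanog the table holds 2 promoters each, and the one listed before the other is shown.
Pou5f1: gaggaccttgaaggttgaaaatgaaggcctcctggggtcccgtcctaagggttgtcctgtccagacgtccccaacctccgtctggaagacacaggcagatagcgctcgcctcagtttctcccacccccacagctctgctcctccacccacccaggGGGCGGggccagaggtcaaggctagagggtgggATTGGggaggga
Sox2: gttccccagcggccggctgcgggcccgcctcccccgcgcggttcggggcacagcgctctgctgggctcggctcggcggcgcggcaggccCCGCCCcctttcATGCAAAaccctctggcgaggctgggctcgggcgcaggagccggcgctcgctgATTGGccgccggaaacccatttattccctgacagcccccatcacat
Nanog: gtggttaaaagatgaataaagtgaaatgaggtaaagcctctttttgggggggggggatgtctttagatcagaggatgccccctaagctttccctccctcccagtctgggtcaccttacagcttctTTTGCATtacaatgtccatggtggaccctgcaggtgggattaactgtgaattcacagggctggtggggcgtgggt
Zfp42: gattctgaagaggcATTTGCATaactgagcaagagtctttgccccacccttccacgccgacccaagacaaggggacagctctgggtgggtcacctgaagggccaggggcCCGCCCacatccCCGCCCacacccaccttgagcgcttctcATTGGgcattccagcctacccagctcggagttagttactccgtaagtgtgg
Rpl38: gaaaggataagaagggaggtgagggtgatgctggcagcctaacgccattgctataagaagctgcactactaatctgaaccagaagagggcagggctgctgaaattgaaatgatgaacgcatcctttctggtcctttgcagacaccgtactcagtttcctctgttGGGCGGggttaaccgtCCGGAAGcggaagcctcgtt
Alb: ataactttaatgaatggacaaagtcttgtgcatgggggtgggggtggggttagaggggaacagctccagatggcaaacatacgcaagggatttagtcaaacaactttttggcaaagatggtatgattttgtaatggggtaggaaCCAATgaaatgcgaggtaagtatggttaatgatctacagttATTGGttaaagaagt

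The letters differ between these genes in ways that the counts over all promoters, given further on, put in context. Sox2 had 23 CpG pairs in its 200 bases, Rpl38 had 8, Zfp42 had 7, Pou5f1 had 6, Alb had 2 and Nanog had 1. The octamer core, the kind of letters that Oct4 is known to bind, was found 99 to 93 bases before the start in Sox2, 75 to 69 before it in Nanog and 185 to 179 before it in Zfp42, there as the whole octamer. The Rpl38 window held a GC box at 36 to 31 and an ETS core at 20 to 14 bases before the start. No TATAAA was among the letters of any of the 6 windows.

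The labelled cell type was checked with 5 markers of embryonic stem cells, and all 5 were abundant on every array. Pou5f1 had signals of 1180, 1215 and 942 on replicates 1, 2 and 3, a mean of 1112 ± 148 (SD, n = 3). Sox2, the partner of Oct4 on DNA, had 1507, 1384 and 1360, a mean of 1417 ± 79.2 (SD, n = 3). Nanog, a homeobox factor that holds cells in the undifferentiated state, had 723, 978 and 1031, a mean of 911 ± 165 (SD, n = 3). Replicate 1 was the lowest array for Nanog and the highest for Sox2, so these 2 genes did not vary together. Dppa5a, which encodes an RNA-binding protein of pluripotent cells, had 3807, 3830 and 2915, and Zfp42, the zinc finger gene also known as Rex1, had 2102, 1838 and 1964. Their means were 3517 ± 522 and 1968 ± 132 (SD, n = 3), and Dppa5a ranked 28th of all 18193 genes.

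Markers of other cell types were read in the same way. For fibroblasts, the connective tissue cells that are often used as feeders, 5 of 7 markers were abundant and the other 2, Lum and Dcn, were moderate. None of the 5 markers of primitive endoderm, the yolk sac lineage, was abundant: Gata4, Gata6, Sox17, Sox7 and Pdgfra had mean signals of 12.4 to 33.9. None of the 4 markers of trophectoderm, the placental lineage, was abundant either, with Elf5 at 0.616 and Eomes at 53.4 as the ends of the range. Among 4 neural markers Sox1 and Pax6 were moderate, at 34.9 and 35.2, and Neurog2 and Dcx near background. Of 4 mesoderm markers 3 were on the array, with Tbx6 near background, and both blood markers on the array, Ptprc and Cd3e, were near background at 3.02 and 1.24.

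**Figure D2:**
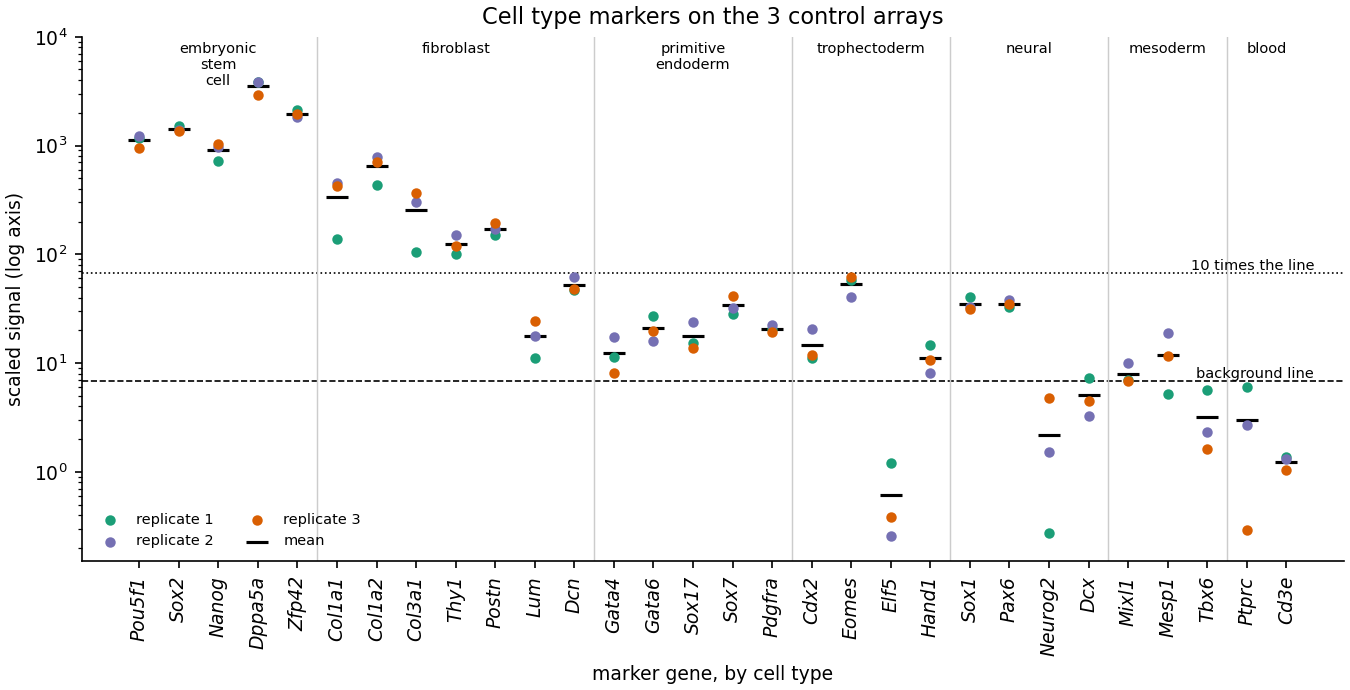
Each point is the scaled signal of a marker gene on 1 of the 3 control arrays (log axis), with a black bar at the mean of the 3, the dashed line at the background line of 6.79 and the dotted line at 67.9. The 5 stem cell markers lie between 723 and 3830, the fibroblast markers reach up to 785, and all markers of the 5 other cell types stay under the dotted line.

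Summed over the markers of a cell type, the stem cell signal was 9319, 9245 and 8212 on replicates 1, 2 and 3. The fibroblast sum was 986, 1936 and 1880, so replicate 1 stood apart from the other arrays. The sum over primitive endoderm markers was 102, 111 and 102, that over trophectoderm markers 84.5, 69.1 and 85.1, and that over neural markers 80.3, 75.9 and 75.5. The mesoderm sum was 17.8, 31.3 and 20.2, and the blood sum 7.44, 4.01 and 1.32. Replicate 1 was the lowest array in none of these other sums except that of mesoderm. In the primitive endoderm sum it was level with replicate 3, under replicate 2. In bulk RNA, fewer cells of a type and less RNA per cell cannot be told apart.

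The network of core and naive pluripotency was almost wholly abundant. Of 36 members on the array, 34 were abundant, 26 lay in the brightest 10% of genes, 2 were moderate and none was near background, with a median signal of 583 against 25.5 for all genes. Trim28, a co-repressor that silences retroviral elements in these cells, had 2826, 3152 and 2269. Among factors of the naive state, the state before implantation, Esrrb had 578, 534 and 565, Tfcp2l1 had 382, 428 and 341, and Klf4 had 997, 1158 and 1067. No array was the lowest for all 3 of these factors. The 2 moderate members were Dppa3 and Sp5. Dppa3, known to be on in only some cells of a culture, had 82.7, 41.8 and 40.4, above the abundant line on replicate 1 alone. Sp5, a Wnt-responsive factor, had 29.1, 25.3 and 25.5.

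The list of the primed epiblast, the state after implantation, was spread over the classes. Of 18 members 9 were abundant (50%, against 35.9% of all genes), 7 moderate and 2 near background, with a median signal of 71.1. The abundant ones included Lefty1 at 1867, 1544 and 1383, an inhibitor of Nodal that naive cells also make, and the DNA methyltransferase gene Dnmt3b at 918, 731 and 624. Both ran in the same order over the arrays, with replicate 1 highest. The classic primed marker Fgf5 was moderate at 10.1, 19.7 and 7.996, while Otx2, a homeobox gene of the epiblast, lay near the abundant line at 67.9, 88.6 and 67.7. Fgf8 and Cer1, signals of the gastrula, were near background at 3.31 and 1.85.

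Along the LIF pathway, 11 of 17 members were abundant (64.7%, against 35.9% of all genes), 5 moderate and 1 near background. Transcripts of the cytokine Lif itself were moderate, at 13.7, 14.0 and 11.7. Its receptor chains Lifr and Il6st were abundant, Lifr at 237, 230 and 205 and Il6st at 117, 95.9 and 106. Downstream, Stat3, the transcription factor of the pathway, had 297, 215 and 303. Socs3, a feedback inhibitor induced by STAT3, had 886, 770 and 721, and the adaptor gene Gab1 had 901, 683 and 609. The related inhibitor gene Socs1 was near background at 10.2, 0.667 and 5.65, with replicate 1 above the line and the others under it.

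The FGF and ERK list had 16 of 23 members abundant (69.6%, against 35.9% of all genes), 6 moderate and 1 near background. The ligand gene Fgf4 had 325, 355 and 311, a mean of 331 ± 22.7 (SD, n = 3). Of the receptors, Fgfr1 was abundant at 126, 109 and 155, while Fgfr2, Fgfr3 and Fgfr4 were moderate, with means of 31.8, 21.2 and 10.02. The kinase gene Map2k1 had 418, 369 and 397. Genes that ERK is known to induce were abundant, among them the factor genes Etv5 at 880, 562 and 733 and Egr1 at 599, 429 and 502. For both, replicate 2 was the lowest array.

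Of 31 genes of BMP, activin and Nodal signalling, 23 were abundant (74.2%, against 35.9% of all genes), 5 moderate and 3 near background. Among ligands, Bmp4 had 228, 284 and 202, Nodal 396, 332 and 328, and Inhbb, a subunit of activin and inhibin, 363, 445 and 491. The Nodal co-receptor gene Tdgf1 had 2037, 1762 and 1619, and Smad4, the shared transducer of the family, 699, 725 and 577. The BMP antagonist gene Nog was near background at 1.10, 1.21 and 2.34. Antagonists were found in both of these classes, since Lefty1, an inhibitor of Nodal in the same list, was abundant at 1598 ± 246 (SD, n = 3).

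Wnt signalling had 14 of 26 members abundant (53.8%, against 35.9% of all genes), 10 moderate and 2 near background. Those 2 were Wnt3 and Wnt3a, both ligands, the former at 1.10 ± 0.847 (SD, n = 3). Ctnnb1, which encodes beta-catenin, the effector of the pathway, had 2652, 2436 and 2202. The kinase gene Csnk1a1, part of the complex that destroys beta-catenin, had 1383, 1226 and 1306, and the receptor gene Fzd7 had 518, 442 and 513. Axin2, a feedback gene that beta-catenin is known to induce, was moderate at 30.3, 33.5 and 20.9.

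The machinery of growth filled the top of the distribution. Of the 20 brightest genes, 13 belonged to the list of cytosolic ribosomal proteins, led by Rps29 at 5155, 4882 and 4079 and Rpl38 at 4693, 4809 and 3727. Rps3a1, the third of all, is a ribosomal protein gene that the list's symbol pattern does not take in. The other 6 were Hspa8, a constitutive chaperone gene, at 4190 ± 668, the actin gene Actg1 at 4063 ± 385, Eef1a1, the elongation factor that delivers transfer RNA, at 4058 ± 592, Npm1, a nucleolar protein gene, at 4039 ± 611, Tpt1 at 4038 ± 709 and the small adaptor gene Bex1 at 3814 ± 359 (SD, n = 3). After scaling, replicate 3 was the lowest array for all 20. Its brightest gene reached 4079 where those of replicates 1 and 2 reached 5155 and 4882. This order depends on the scaling to equal medians, which multiplied replicate 3 by 0.833 and replicates 1 and 2 by 1.10 and 1.12. In the deposited values the highest signal of replicate 3 was 4895, against 4684 and 4352 on replicates 1 and 2. Of the 20 probe sets, 19 carry the suffix x, s or a in their name. The suffixes x and s mark possible binding to transcripts of other genes, and a marks binding to several transcripts of the same gene.

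Outside the lists of ribosomal proteins and translation factors, the 20 brightest genes ran from Rps3a1, which those lists do not hold, down to Hspd1, the mitochondrial chaperonin gene, at 3015 ± 307 (SD, n = 3). Dppa5a was the one pluripotency factor among them. Uqcrb, of respiratory complex III, had 3510 ± 341, Hmgn1, a nucleosome-binding protein gene, 3453 ± 389, and Tmsb10, which encodes an actin-sequestering peptide, 3448 ± 450 (SD, n = 3). Hsp90aa1, Actb, Ncl, Pebp1, Tomm20, Serbp1, Ran, Pabpc1 and Hnrnpab, with means of 3073 to 3436, made up much of the rest. Apart from Pebp1, which encodes an inhibitor of the kinase Raf, they serve protein folding, the cytoskeleton, the nucleolus, import into mitochondria and the nucleus, and the binding of messenger RNA.

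Of 46 cytosolic ribosomal protein genes with a probe set of their own, 42 were abundant, 37 of them in the brightest 10%, with a median signal of 3302. With only the probe sets whose names lack the suffixes x, s and a, called unique here, 25 members were represented and 17 of them were abundant. Rps16 was near background at 0.316, yet reached 3716 on a probe set shared with other symbols, and 30 further ribosomal protein symbols occurred on shared probe sets alone and were abundant there. All 73 mitochondrial ribosomal protein genes were abundant, from Mrpl54 at 95.3 to Mrpl15 at 1316. Of 58 translation factors 49 were abundant; Eif4a3, near background at 0.643, read 1084 on a shared probe set. A low reading of a single probe set therefore did not always extend to the other probe sets of the same gene.

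Genes of energy and biosynthesis were also mostly abundant. In glycolysis 17 of 18 members were abundant, with the glucose transporter gene Slc2a3 at 2416, 2569 and 2028, Pgam1 at 2331, 1928 and 1869 and the pyruvate kinase gene Pkm at 2120, 2035 and 1744, while the brain-type aldolase gene Aldoc was moderate at 39.1. Of 24 genes of one-carbon, threonine and nucleotide metabolism 23 were abundant, led by Odc1, the first enzyme of polyamine synthesis, at 2440 ± 259, Paics, of purine synthesis, at 2098 ± 212 and Rrm2, of deoxynucleotide synthesis, at 1966 ± 159 (SD, n = 3). The remaining member, Tyms, was moderate at 11.3 and read 219 on a probe set with several symbols. Of 77 genes of the respiratory complexes and ATP synthase 71 were abundant, among them Cox5a at 2646 and Atp5b at 2612. The muscle-type subunit gene Cox8b was near background at 0.420.

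Proliferation genes were abundant almost throughout. Of 40 cell cycle and replication genes 39 were abundant and 26 lay in the brightest 10%. Pcna, the sliding clamp of DNA polymerase, had 3020, 2806 and 2358, Cdc20, an activator of the anaphase-promoting complex, 2288, 2111 and 1884, and the helicase gene Mcm7 2169, 2295 and 1732. The exception was Cdkn2a, a tumour suppressor locus that holds back the cycle, moderate at 10.5, 20.7 and 15.2. Of 22 genes of p53 and apoptosis 18 were abundant, including the survival gene Mcl1 at 2301, 1816 and 1988 and the p53 targets Ccng1 at 1210 ± 73.3 and Mdm2 at 405 ± 7.91 (SD, n = 3). The death receptor gene Fas was near background at 5.96.

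Protein quality control and RNA processing were abundant as groups. Of 29 chaperone genes 27 were abundant, while the heat-inducible Hspa1a was moderate at 39.1, 34.7 and 32.8. Of 39 proteasome subunits 35 were abundant, led by Psma6 at 2494, and the one member near background, Psmb11 at 3.23, is the subunit of the thymus. All 35 splicing and RNA-binding genes were abundant and 34 of them in the brightest 10%. Of 28 cytoskeleton genes 26 were abundant.

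Chromatin regulators were largely above background. Of 12 DNA methylation genes 10 were abundant: Tet1, which oxidises methylcytosine, had 783, 854 and 741, the maintenance methyltransferase gene Dnmt1 had 341, 301 and 322 and its partner gene Uhrf1 413, 396 and 424. Tet3, known from the egg and neurons, was near background at 7.95, 1.12 and 4.85. Of 33 polycomb and trithorax genes 26 were abundant and none near background, with Eed, of polycomb complex PRC2, at 1476, 1342 and 1359, Mtf2 at 1179 ± 67.9 and Ash2l, of the H3K4 methyltransferase complexes, at 1135 ± 214 (SD, n = 3). In chromatin remodelling 26 of 32 were abundant; of the ATPases of the BAF complex, Smarca2 was near background at 8.73, 1.12 and 7.18.

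Of 23 histone lysine demethylase genes, 14 were abundant (60.9%, against 35.9% of all genes), 7 moderate and 2 near background. Kdm1a, which encodes LSD1, had 1056, 947 and 814, Kdm2b 887, 879 and 676 and Kdm5b 719, 560 and 673. Kdm7a, the gene of KIAA1718, was moderate in these control cells, at 36.7, 35.0 and 37.5, a mean of 36.4 ± 1.24 (SD, n = 3), 5.36 times the background line. The 2 members near background were Kdm4d at 2.11 and the Y-linked Kdm5d at 3.77.

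Lists of other lineages differed in their share of abundant members. Of 21 primitive endoderm genes 7 were abundant (33.3%, against 35.9% of all genes), 11 moderate and 3 near background. Sparc had 632, 1163 and 911 and Col4a1 406, 587 and 503, with replicate 1 lowest for both, while Lamb1 had 426, 456 and 389. These 3 encode matrix and basement membrane proteins that fibroblasts make as well, and the fibroblast markers were lowest on replicate 1 too; their part in these signals was not tested. The liver and yolk sac gene Apoa1 was near background at 0.635. Of 17 trophectoderm genes 3 were abundant (17.6%, against 35.9% of all genes). They were the factor gene Tfap2c at 218, 191 and 181 and the keratin genes Krt8 at 121, 87.8 and 80.3 and Krt18 at 105, 68.5 and 60.3. Krt18 was thus above the abundant line on replicates 1 and 2 only, and the placental factor gene Gata3 was near background at 0.471.

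Of 20 mesoderm genes 1 was abundant (5%, against 35.9% of all genes), 11 were moderate and 8 near background. The abundant one, Snai2, had 76.7, 198 and 151. Snai2 encodes a factor of mesenchymal cells. Replicate 1 was its lowest array, as for the fibroblast markers, and a link between them was not tested. Of 22 neural genes 2 were abundant (9.09%, against 35.9% of all genes). They were Stmn2, a regulator of microtubules in neurons, at 881, 908 and 801 and the neurofilament gene Nefl at 230.5, 165 and 195. The progenitor factor gene Olig2 was near background at 0.968. Of 22 germline genes 6 were abundant, among them Rnf17 at 164, 153 and 162 and Ddx4, the germ cell helicase gene, at 102, 85.5 and 92.0, and the piRNA pathway gene Tdrd1 was near background at 0.856. The germline shares were 27.3% abundant and 31.8% near background, against 35.9% and 31.3% of all genes.

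**Figure D3:**
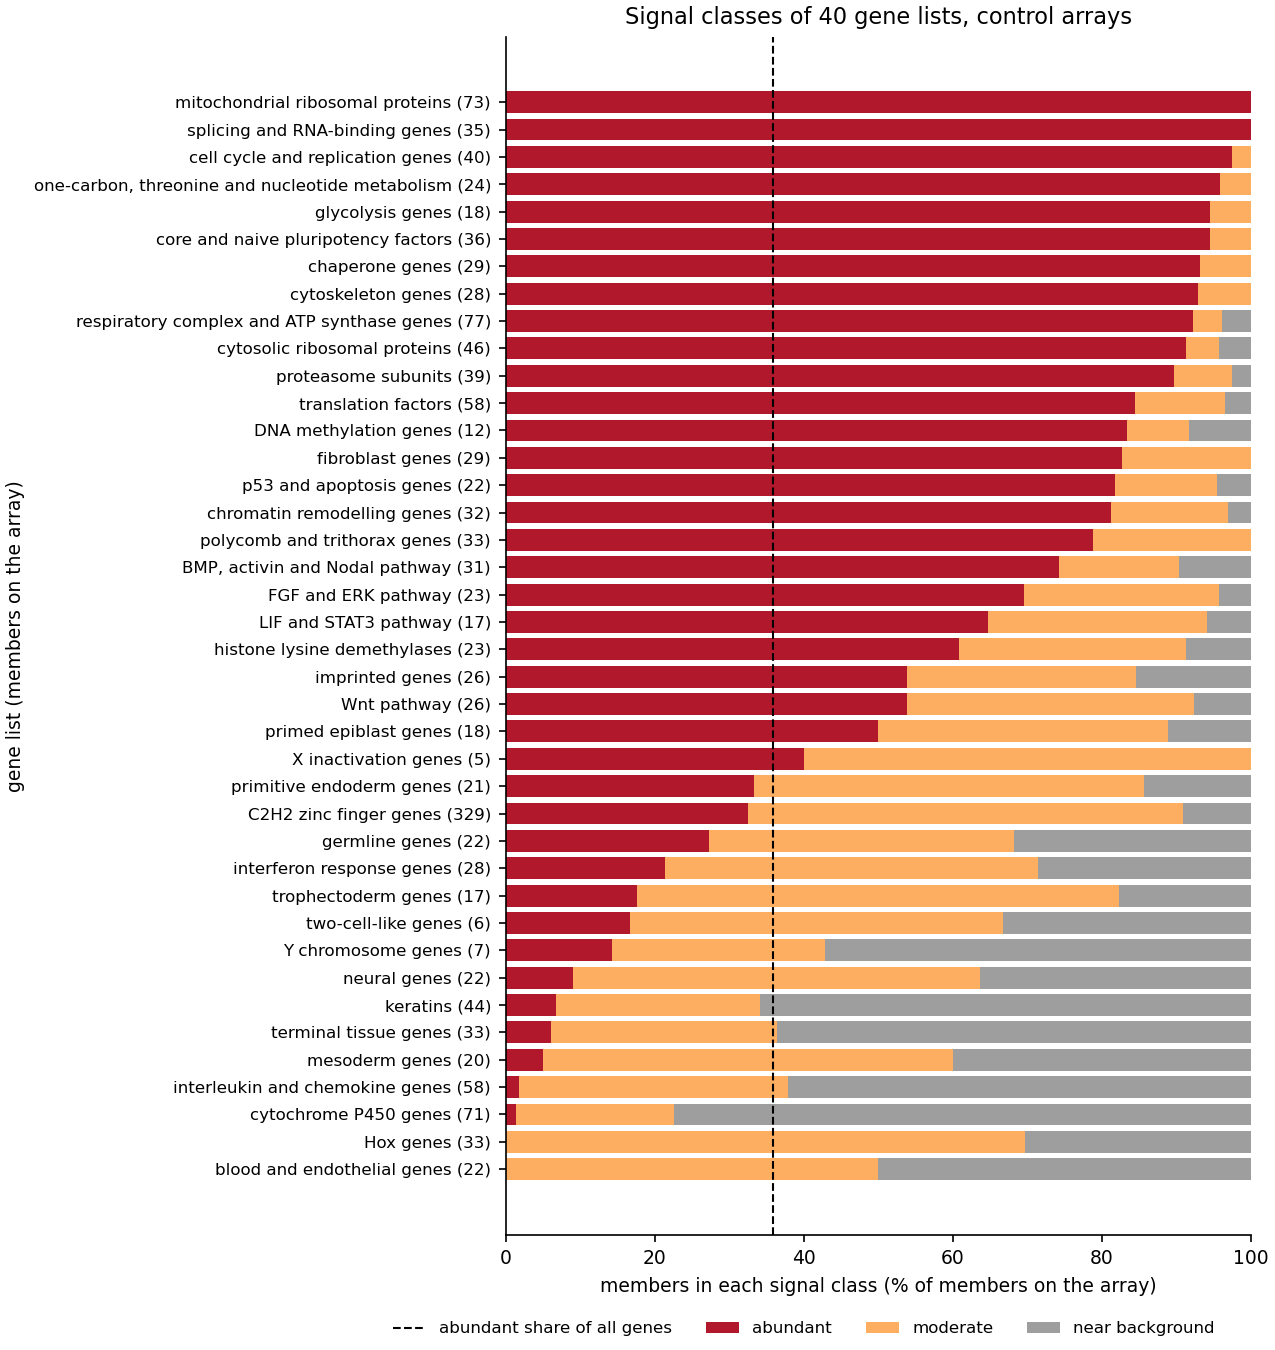
Stacked bars give the percentage of each list's members on the array (number in brackets) that were abundant, moderate or near background, with a dashed line at the abundant share of all genes, 35.9%. Mitochondrial ribosomal protein and splicing genes were abundant throughout, whereas the Hox and the blood and endothelial lists had no abundant member.

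Some of these counts depend on the lines and probe sets used. Over the alternatives of scaling, probe set, array and background line, the abundant members of the LIF list numbered 7 to 11, those of the demethylase list 9 to 15, and those of the imprinted list 8 to 14. The germline list had 2 to 6, the interferon list 1 to 6, the trophectoderm list 1 to 3 and the glycolysis list 10 to 17, fewer members being represented where unique probe sets alone were used. The pluripotency list had 30 to 34, and no alternative gave the Hox or the blood and endothelial list an abundant member. The mesoderm, Y chromosome, X inactivation, early embryo, keratin, cytochrome P450, and interleukin and chemokine lists, with 1 to 3 abundant members, each had 0 in at least 1 alternative. Of the abundant genes named, Acta2, Gnas, Xist and Ces5a were near background with the median over probe sets. With unique probe sets alone, Acta2, Xist, Ces5a, Tpt1, Hmgn1, Cryab and Mdm2 were.

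Gene families of differentiated tissues lay mostly near background. Of 33 products of terminal tissues 2 were abundant and 21 near background, against 31.3% of all genes near background. The 2 were Cryab, a small heat shock protein gene of lens and muscle, at 263, 372 and 426, and Actn3, of fast muscle, at 165, 170.5 and 148. Of 71 cytochrome P450 genes 55 were near background and 1, Cyp20a1, was abundant at 237, 316 and 256. Of 58 interleukin and chemokine genes 36 were near background, and the one abundant member was the monocyte chemokine gene Ccl2, at 86.6, 99.2 and 106. Of 44 keratin genes 29 were near background, and no blood or endothelial gene of 22 passed 39.4, the signal of Lyz2.

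None of 33 Hox genes, which pattern the body axis, was abundant. The list still had 23 moderate members, led by Hoxc8 at 37.0, 45.5 and 49.1, Hoxb2 at 36.0, 32.8 and 45.9 and Hoxa5 at 40.02, 40.2 and 32.3, and 10 near background. Replicate 1 was lowest for 10 of those 23, and for 24.8% of all genes above background. The share of the Hox list near background was 30.3%, against 31.3% of all genes, of which 32.8% were moderate. Of 329 numbered C2H2 zinc finger genes, a family in which many members silence transposons, 107 were abundant, 192 moderate and 30 near background. These are 32.5% abundant and 9.12% near background, against 35.9% and 31.3% of all genes. Of 28 interferon response genes 6 were abundant, led by B2m, the light chain of MHC class I, at 401, 468 and 544, while the antiviral gene Mx2 was near background at 0.744. The interferon shares were 21.4% abundant and 28.6% near background, against the same 35.9% and 31.3%.

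R1 cells are male, and 1 of 7 Y-linked genes was abundant, Eif2s3y at 129, 100.3 and 81.7. Uty was moderate at 26.1, 23.8 and 20.8, so both were highest on replicate 1. Xist, the noncoding RNA that coats the silent X chromosome of female cells, was abundant at 172, 190 and 204, a mean of 189 ± 15.7 (SD, n = 3), on a probe set whose suffix marks possible binding to other transcripts. Its other 2 probe sets, whose names mark them as unique, were near background at 4.16 and 2.64, so Xist was near background when unique probe sets or the median over probe sets stood for the gene. Of 6 genes of the rare state that resembles the embryo at its first division, Zfp352 was moderate at 10.6 and Tcstv3 near background at 0.596, and the abundant one, Eif1a, encodes a translation initiation factor.

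The imprinted list holds genes each read from a single parental copy. Of its 26 members 14 were abundant (53.8%, against 35.9% of all genes), 8 moderate and 4 near background. Gnas had 1007, 1041 and 953, the noncoding RNA gene Meg3 1076, 1060 and 798, and Grb10, a growth inhibitor, 678, 617 and 560. The growth factor gene Igf2 differed between arrays, at 47.2, 186 and 175, so that replicate 1 lay in the moderate class and the others in the abundant one. Usp29 was near background at 1.52.

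The arrays ranked genes alike: Spearman's correlation over the 18193 genes, which are not independent replicates, was 0.963, 0.964 and 0.967 between pairs of arrays. Over the 12501 genes above background the highest array exceeded the lowest by a median of 1.27-fold, and 1120 genes (8.96%) reached 2-fold. For abundant genes the median was 1.20-fold, and 65 of 6529 (0.996%) reached 2-fold. The coefficient of variation had a median of 9.65% for abundant, 18.98% for moderate and 62.0% for genes near background. All 3 arrays fell inside the class of the mean for 94.0% of abundant, 76.9% of moderate and 74.1% of near background genes. Genes at the lines were not distinct from their neighbours across them: Slc8a1, Otp and Dnah2, just under the background line, had means of 6.78 to 6.79, and St6galnac2, Cmpk2 and Amz1, just over it, 6.79 to 6.80. At the abundant line, Acy1, Zfp37 and Washc1 lay just under it at 67.8 to 67.9 and Sec24b, Krba1 and Tmem98 just over it at 67.9 to 68.0.

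Among genes above background, those with the widest spread between arrays had low signals. Creb3l3 had 20.3, 3.21 and 0.702, a 28.9-fold range, and it was followed by Gjb2, U90926, Tmem80, Sult5a1, Tnni3k, Hcst, Cypt3, Casp12, Fbxo24, Eva1c and Cd248. Of these 12, 11 had means of 6.92 to 11.6, close to the background line. Cd248, which encodes a surface protein of fibroblasts and pericytes, was the exception at 4.09, 54.0 and 46.8, low on replicate 1. Among abundant genes, listed after the data were seen, the widest were Ces5a, Cul5, Serpinb2, Igf2, Ltbp2, Mgp, Col3a1, Thbd, Col6a2, Neat1, Col1a1 and Lztr1. Of these, Ltbp2, Mgp, Col3a1, Col6a2 and Col1a1 encode matrix proteins and were all lowest on replicate 1. Serpinb2, Igf2 and Thbd were lowest there too, while Ces5a, Cul5, Neat1 and Lztr1 were not. Among all abundant genes 17.3% were lowest on replicate 1.

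The fibroblast list was low on replicate 1 as a whole. Of 29 members 24 were abundant, 5 moderate and none near background, with a median signal of 176. All 29 were lowest on replicate 1, where 24.8% of all genes above background and 17.3% of abundant genes were lowest. The list was chosen with earlier results of these data known, so this count is a description and not an independent finding. The collagen gene Col1a1 had 139, 448 and 421, Col3a1 had 105, 303 and 365, and Col1a2 had 434, 785 and 710. The intermediate filament gene Vim had 2004, 2686 and 2500, the smooth muscle actin gene Acta2 1668, 2461 and 2050, and Fn1, which encodes fibronectin, 1604, 2367 and 1821. In each of these 6 genes replicate 1 stood below both other arrays. The list's median difference of replicate 1 from the mean of the others was -0.72 (log2 signal), against 0.09 for all genes above background, and it lay between -0.91 and -0.71 in the 10 alternatives that kept replicate 1. Without replicate 1, 25 of the 29 were abundant.

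**Figure D4:**
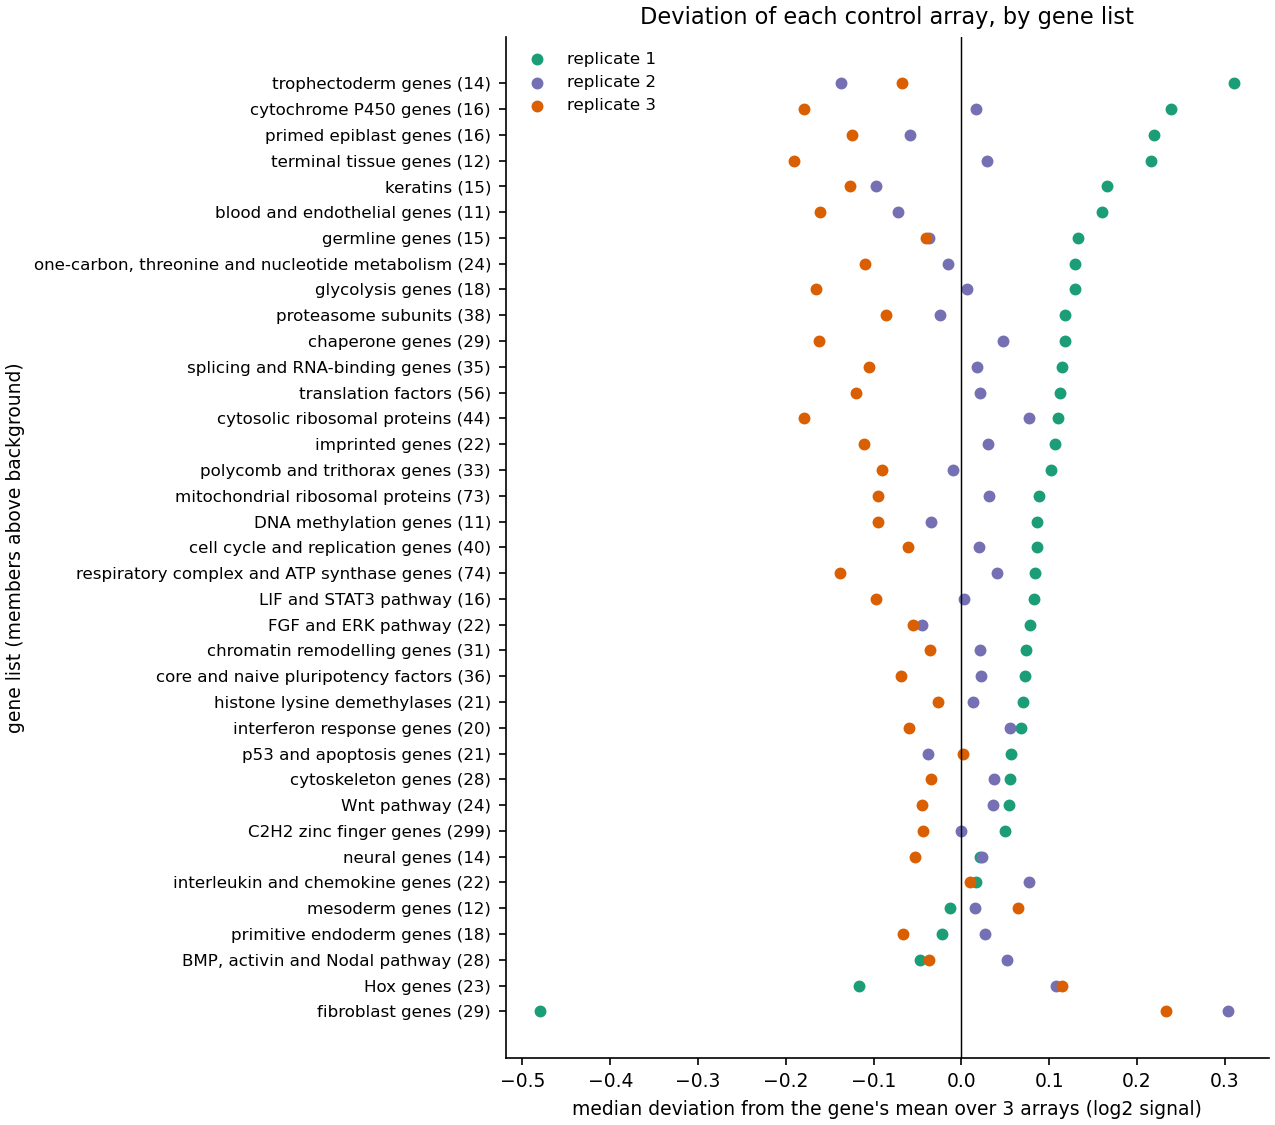
Points give, for each list with at least 10 members above background (number in brackets), the median log2 deviation of each control array from the gene's mean over the 3 arrays. The fibroblast list has replicate 1 at -0.48 and replicates 2 and 3 at 0.30 and 0.23, while most other lists have replicate 1 a little above 0 and replicate 3 a little below it.

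At the other end, and among lists with at least 10 members above background, the trophectoderm list had the highest median on replicate 1, with a difference of 0.47 from the mean of the others over its 14 such members. The cytochrome P450 list had 0.36 over 16 and the primed epiblast list 0.33 over 16. The Hox list had -0.18 over 23 members and the BMP, activin and Nodal list -0.07 over 28. The core and naive pluripotency list had 0.11 over 36, close to the 0.09 of all genes above background. Of those 36, 5 were lowest on replicate 1, Nanog and Klf4 among them.

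Several features of the genes differed along the range of the signal. Of 16473 protein-coding genes 39.2% were abundant and 26.8% near background, whereas of 1458 long noncoding RNA genes 3.22% were abundant and 76.3% near background. Abundant genes spanned a median of 23794 bases of the genome, moderate genes 22154 and genes near background 14727.5. Across the autosomes and the X chromosome the abundant share ran from 28.8% on chromosome 6 to 42.0% on chromosome 8, with 35.0% on the X. Genes with a single probe set were near background in 46.6% of cases and those with several in 15.7%, so the number of probe sets is tied to the class. Part of this is built in, since the brightest of several was taken.

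RefSeq held a promoter entry, 250 bases before to 50 after the start, for 14452 of the 18193 genes. The median ratio of observed to expected CpG pairs was 0.819 in abundant, 0.682 in moderate and 0.298 in near background genes, and 82.9%, 59.4% and 22.4% of them reached 0.6, a usual mark of a CpG island. Cytosolic ribosomal protein genes had a median of 0.890 over 40 promoters. Pluripotency genes, though abundant, had 0.548 over 24, and terminal tissue genes 0.229 over 24. With the genes ordered by signal into 10 equal groups, the median went from 0.243 in the dimmest group to 0.855 in the brightest.

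Motif matches, searched on both strands, followed different courses. The GC box was found in 69.4% of abundant, 59.1% of moderate and 29.4% of near background promoters, and in 35.9% of all promoters of the table. The ETS core was found in 22.5%, 12.5% and 4.40%, with 9.12% of all promoters and 20 of the 40 ribosomal ones. The TATA box ran the other way, with 6.41%, 8.47% and 15.6%, and 14.2% of all. The CCAAT box hardly differed between the classes, at 39.6%, 37.6% and 37.0%, with 37.9% of all. The table covers 27025 genes, more than the array holds. Over the 14452 array genes with a promoter, the GC box was found in 54.0% and the ETS core in 13.8%. The TATA box was found there in 9.87% and the CCAAT box in 38.2%.

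The E-box was found in 11.7%, 8.98% and 5.72% of abundant, moderate and near background promoters (7.24% of all), the YY1 core in 10.6%, 5.48% and 1.85% (4.19% of all) and the cyclic AMP response element in 3.82%, 2.43% and 1.53% (1.88% of all). The octamer was found in 1.22%, 1.51% and 1.79% (1.75% of all). Its core was found in 2.89%, 3.63% and 4.99% (4.59% of all), and in 3 of 24 pluripotency promoters, those of Sox2, Nanog and Zfp42 shown above. Over the array genes with a promoter, the E-box was found in 9.02%, the YY1 core in 6.30% and the cyclic AMP response element in 2.68%. The octamer was found there in 1.49% and its core in 3.76%. A match is a description of the letters and not of binding. The median GC content of the promoters was 61.7%, 60.3% and 52.0% in the 3 classes, and its part in the motif shares was not tested.

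**Figure D5:**
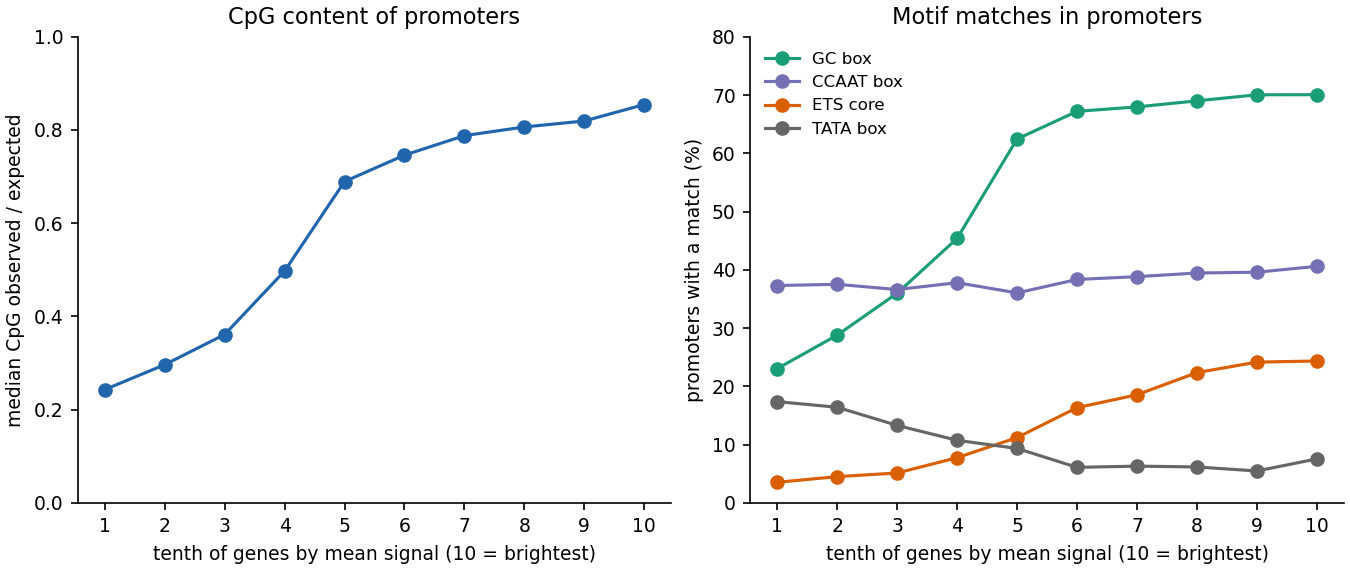
Genes with a promoter entry are ordered into 10 equal groups by mean signal (10 = brightest). The left panel plots the median observed over expected CpG ratio of each group, from 0.243 to 0.855, and the right panel the percentage of promoters with a GC box, CCAAT box, ETS core or TATA box, of which the GC box and the ETS core become more frequent with signal and the TATA box less frequent.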

How the data were processed

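Total RNA of 3 control samples was measured on 1-colour arrays. The deposited table holds linear signal intensity for each probe set, made by the authors with GCOS, per the submitters' processing notes. No source used here names its version or algorithm, and detection calls were not used. The deposited control arrays had medians of 9.76, 9.58 and 12.9, and each was multiplied to reach the common median over 45037 probe sets, 64 AFFX controls being left out. Of these, 34945 had 1 gene symbol, 932 several and 9160 none; symbols were updated through Entrez numbers with RefSeq (GRCm38.p6). The means of 3 arrays were computed with pandas 2.3.3 and numpy 2.4.6 in Python 3.11.15. The class steps were run on simulated data with the same relative noise at every signal level. In the arrays the median coefficient of variation was 9.65% for abundant, 18.98% for moderate and 62.0% for near background genes. The simulation therefore does not show how stable the moderate and near background classes are. The number of arrays limits the precision.

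The genes named are the 5 markers, the 20 brightest, the 20 brightest outside ribosomal proteins and translation factors, the 3 brightest and the dimmest of each of 41 lists, the 12 with the widest spread, and 3 on either side of each line; RIKEN clones and numbered models were not named. Alb, Esrrb, Tfcp2l1, Klf4, Dppa3, Fgf5, Otx2, Lif, Lifr, Il6st, Stat3, Fgf4, Fgfr1, Fgfr2, Fgfr3, Fgfr4, Bmp4, Nodal, Inhbb, Wnt3a, Axin2, Dnmt1, Kdm5d, Kdm7a and further cell type markers fall outside the rule and were chosen with their values in view. The members and lists were chosen with earlier results of these data known. Alternatives changed the scaling, the probe set, the arrays and the lines.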

Additional observations from a re-analysis of the deposited data

How the results depend on the processing

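No paired analysis was possible because the description uses a single group. With abundant set as the brightest 10% of genes, 1820 genes were abundant and 10681 moderate. Leaving out 1 array gave Sox2 a signal of 1301 to 1511 and Zfp42 one of 1773 to 2144, since the remaining arrays set the scale. In the other 12 alternatives the abundant share ran from 24.4%, with the line at 20 times background, to 38.4%, without replicate 1, where 6987 genes were abundant. Of 984 counts of list members under an alternative, 104 moved by over 1.5 times, and of 2093 signals of named genes 232 moved by more than 1 SD. The median over probe sets left 5223 abundant genes and unique probe sets 5131 of 16591. Under these settings 62 of 6529 and 131 of 5773 abundant genes were near background, and no other alternative moved a gene between those classes. Single probe sets differed more. Of 4399 abundant genes with several probe sets, 1363 had a probe set near background. Of all 9010 genes with several, 3647 (40.5%) had every probe set in the same class. Depth has no counterpart here: signal over background limits the moderate and dim classes, where the class of a gene often differed between arrays.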
